A study of Mus musculus with 15 samples.

Results

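The 8 checkpoint and exhaustion genes described here were Pdcd1, Lag3, Havcr2, Tigit, Ctla4, Tox, Entpd1 and Cd160. They were taken by gene symbol from the 4 deposited tables of genes selected by the authors, which together list 4567 genes with read counts for 15 RNA-seq libraries. Every row of a table had an adjusted p below 0.05 and a log2 fold change beyond 2 in either direction in the comparison of that table. Of the 8 genes, 7 had a row, and Tox, a transcription factor of exhausted T cells, had a row in none of the 4 tables, so its level is not known from them. Pdcd1, Lag3, Havcr2, Tigit, Ctla4 and Entpd1 entered through each of the 3 comparisons with control cells, and Cd160 entered through the CD4 comparison alone. Because the genes were listed on account of their differences in these same libraries, the p-values given for the comparisons with controls are not independent evidence. The same holds for the test of the difference between the CD4 and CD8 responses, which uses the same control and Day 7 libraries.

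The libraries came from splenic T cells of mice with acute Graft-versus-Host disease (aGvHD), in which donor T cells attack the tissues of a transplanted host, and from T cells of healthy mice. For aGvHD, lethally irradiated Balb/C recipients were given bone marrow and T cells of C57Bl6 donors, and CD4 and CD8 cells were sorted on Day 7. Cells were stained with FLICA, a dye that is retained where caspase-1 is active, and sorted into CD4 Flica-negative, CD8 Flica-negative and CD8 Flica-positive cells. The paper reports that most Flica-positive T cells of aGvHD mice took up a dye that enters damaged cells, and Flica-negative ones hardly did. The sorted fractions may thus differ in membrane damage and cell death too. The control CD4 and CD8 cells were Flica-negative and came from untransplanted C57Bl6 mice on Day 0. Each of the 5 groups held 3 libraries, labelled as biological replicates. Several aGvHD mice were pooled for a sort, and fewer control mice were used. Flica-positive CD4 cells were not analysed here. Controls and aGvHD cells thus differed in irradiation of the mouse, transplantation and time together, and these cannot be told apart.

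Checkpoint receptors are surface proteins that dampen the signal of the T cell receptor once they bind ligands on a neighbouring cell. They appear within days of T cell activation and stay high on chronically stimulated, exhausted T cells, so their RNA alone does not tell these states apart. In alloreactive T cells, which meet host antigen throughout the body, the same receptors are known to limit tissue damage. Pdcd1 (PD-1) and Ctla4 restrain the T cell receptor and CD28 signal, Lag3 binds MHC class II, Havcr2 (TIM-3) and Tigit have ligands on antigen-presenting and dying cells, and Cd160 binds the herpesvirus entry mediator. Entpd1 (CD39) is an ectoenzyme that breaks down extracellular ATP on the way to adenosine.

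In the GRCm38 genome Pdcd1 and Ctla4 share chromosome 1 and the others each have a chromosome of their own. Pdcd1 (ENSMUSG00000026285) spans chr1:94038305-94052553 on the minus strand and Ctla4 (ENSMUSG00000026011) chr1:60887000-60915832 on the plus strand. Lag3 (ENSMUSG00000030124) lies at chr6:124904361-124911705, minus strand, and Havcr2 (ENSMUSG00000020399) at chr11:46454935-46481255, plus strand. Tigit (ENSMUSG00000071552) lies at chr16:43648867-43664146, minus strand, and Entpd1 (ENSMUSG00000048120) at chr19:40612366-40741602, plus strand. Cd160 (ENSMUSG00000038304) lies at chr3:96798763-96829351, minus strand, and 68 bases of its exons overlap exons of Pdzk1 on the opposite strand, so reads there could belong to either gene.

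Promoter sequence was found for 6 of the 8 genes in RefSeq (GRCm38.p6); Lag3 and Tox had no entry. The 250 bases upstream of the transcription start are shown for the genes with the largest changes in CD8 cells (Pdcd1, Havcr2), for the gene that differed with the FLICA signal (Ctla4), and for the gene with its own lineage pattern (Cd160). The starts are those of RefSeq, and the windows shown for Ctla4 and Cd160 lie inside the wider gene spans given above. Each runs 5′ to 3′ on the strand of its gene, and capitals mark matches, on either strand, to any of 4 motifs: TGANTCA (AP-1), TGGAAA (NFAT core), GGTGTGA (T-box) and CANNTG (E-box).
Pdcd1, chr1:94052554-94052803, minus strand: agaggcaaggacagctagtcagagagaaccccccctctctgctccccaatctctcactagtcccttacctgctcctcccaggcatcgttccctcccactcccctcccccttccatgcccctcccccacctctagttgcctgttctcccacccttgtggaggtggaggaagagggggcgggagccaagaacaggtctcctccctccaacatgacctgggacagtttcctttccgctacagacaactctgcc
Havcr2, chr11:46454681-46454930, plus strand: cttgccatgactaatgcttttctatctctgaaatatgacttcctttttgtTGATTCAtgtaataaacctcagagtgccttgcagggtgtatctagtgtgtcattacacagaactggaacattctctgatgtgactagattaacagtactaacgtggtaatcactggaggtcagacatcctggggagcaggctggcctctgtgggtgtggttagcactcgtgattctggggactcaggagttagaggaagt
Ctla4, chr1:60908775-60909024, plus strand: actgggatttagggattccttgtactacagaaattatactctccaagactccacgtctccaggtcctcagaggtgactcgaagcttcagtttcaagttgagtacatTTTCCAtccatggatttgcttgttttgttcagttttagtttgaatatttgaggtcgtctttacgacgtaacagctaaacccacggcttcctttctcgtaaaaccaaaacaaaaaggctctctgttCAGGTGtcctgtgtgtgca
Cd160, chr3:96814522-96814771, minus strand: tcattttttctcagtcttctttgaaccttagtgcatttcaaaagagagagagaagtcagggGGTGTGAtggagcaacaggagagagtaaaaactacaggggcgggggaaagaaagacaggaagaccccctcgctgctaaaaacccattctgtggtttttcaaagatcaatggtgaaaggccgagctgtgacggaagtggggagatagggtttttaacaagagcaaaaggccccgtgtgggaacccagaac
The Havcr2 window held TGANTCA beginning 200 bases before the start, a motif present in 6.75% of the 32851 RefSeq promoter windows of this length. Ctla4 held TGGAAA on the opposite strand 144 bases before the start (18.6% of windows) and CANNTG 19 bases before it. This Cd160 window, 1 of 2 listed for the gene, held GGTGTGA 189 bases before the start (3.33% of windows). CANNTG occurs in 66.2% of windows and was also found in those of Tigit, in 1 of the 2 of Entpd1 and in the other of Cd160, whereas the Pdcd1 window held none of the 4. The windows that carried a motif thus did not share one set of motifs, and a match is a description of the sequence only.

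In all, the listed genes held between 2143579 and 11046043 reads per library, a sum over listed genes that is not the sequencing depth. Levels are given as normalized counts, which are reads divided by the size factors of the authors (0.836 to 1.25). The 3 Flica-positive libraries stood apart: mitochondrially encoded genes took 42.8 to 51.7% of their listed reads against 15.1 to 28.8% in the other 12, and all 14 neutrophil markers were higher there than in the CD8 Flica-negative libraries (summed level 200517 to 387729 against 11864 to 18188 normalized counts). Of all listed genes 20.6% were called higher in that comparison. Cd8a went with the sorting label, with group means from 10759 to 19748 normalized counts in CD8 and of 6.43 and 69.4 in CD4 groups; none of the 15 pan T cell markers, nor Cd4, had a row.

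**Figure D1:**
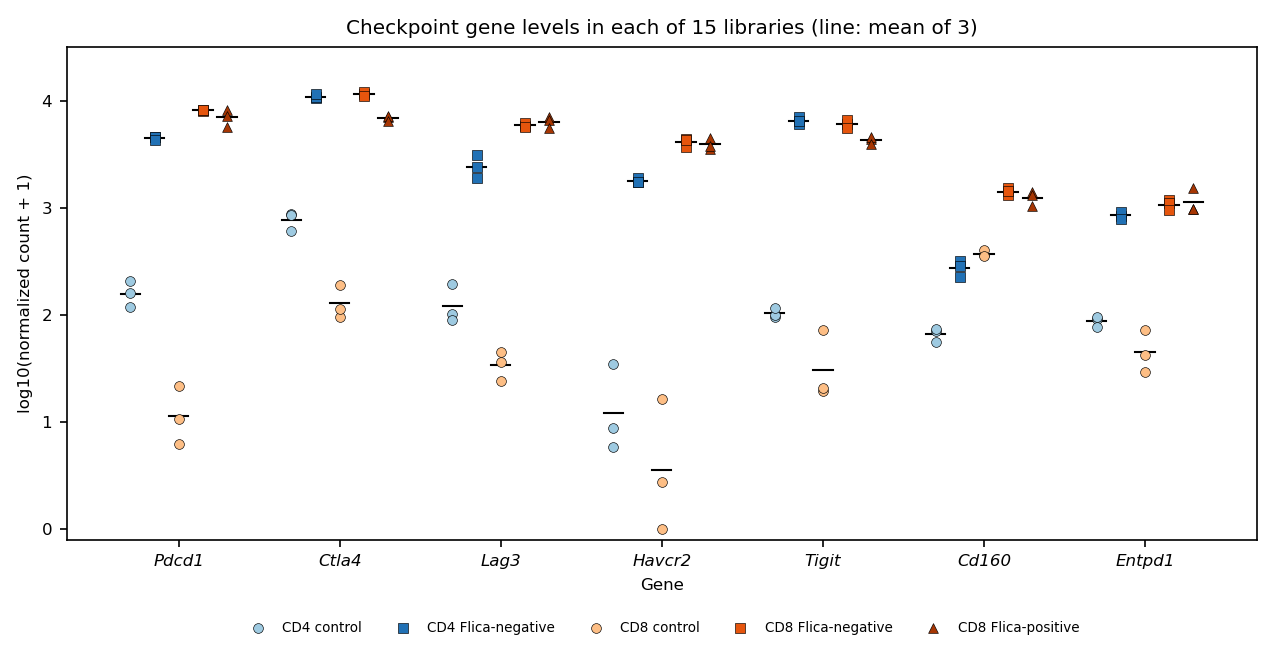
Normalized counts of the 7 genes in each of the 15 libraries, on a log10 scale after adding 1 (y axis), grouped by gene (x axis) and coloured by group; points are libraries and lines the mean of 3 on that scale. All 9 aGvHD libraries lie above their own lineage's controls for every gene, and the controls of Havcr2 reach down to 0.

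In control cells the genes were low but not alike. Pdcd1 stood at 157.4, 117.0 and 203.7 normalized counts in CD4 controls and at 5.29, 20.6 and 9.62 in CD8 controls, where it rested on 6 to 23 reads per library. Ctla4, which outcompetes CD28 for its ligands, had 876.6, 851.0 and 606.6 normalized counts in CD4 controls against 95.1, 190.7 and 111.6 in CD8 controls. For both genes the 2 control groups did not overlap, which held, with CD4 higher, for 14.1% of listed genes. Lag3 gave 100.5, 89.0 and 191.2 in CD4 controls and 35.2, 23.3 and 44.2 in CD8 controls. Cd160, a receptor known from cytotoxic T and NK cells, had the opposite pattern, with 69.2, 55.1 and 72.0 in CD4 controls and 356.8, 398.5 and 353.9 in CD8 controls. Havcr2 was close to absent in both, at 7.82, 4.84 and 33.8 in CD4 and 1.76, 15.2 and 0 in CD8 controls.

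Among control cells, 5 of the 7 genes differed between CD4 and CD8 (edgeR quasi-likelihood test, adjusted p below 0.05), 4 higher and 1 lower in CD4, where 12% of the listed genes were called (6.5% higher, 5.45% lower). The log2 difference, CD4 over CD8, was 3.74 for Pdcd1 (SE 0.49, adjusted p = 2.7e-07), 2.55 for Ctla4 (SE 0.24, adjusted p = 1.6e-10) and 1.89 for Lag3 (SE 0.45, adjusted p = 0.0023). It was -2.50 for Cd160 (SE 0.28, adjusted p = 6.2e-09). Tigit, which competes with the activating receptor CD226 for shared ligands, stood at 94.9, 98.6 and 113.8 in CD4 and 18.5, 19.7 and 71.2 in CD8 controls, a log2 difference of 1.49 (SE 0.50, adjusted p = 0.043). That call was lost with TMM scaling (adjusted p = 0.0511), with DESeq2 (adjusted p = 0.0554) and on leaving out any library but CD8 control replicate 3: adjusted p was 0.073, 0.069 and 0.099 without CD4 control replicates 1, 2 and 3, and 0.2 and 0.14 without CD8 control replicates 1 and 2. The Lag3 call was lost without CD4 control replicate 3 (adjusted p = 0.061), which had the highest Lag3 and Havcr2 of its group; 3 genes were then called in place of 5. The differences of Havcr2 (1.43, SE 1.40) and Entpd1 (0.89, SE 0.47) did not pass. Of 10 regulatory T cell markers 5 had a row, Foxp3 not among them, and 4 of these 5 were higher and 1 lower in CD4 than in CD8 controls; their part in these differences was not tested.

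At Day 7 of aGvHD all 7 genes were higher than in control cells of the same lineage, in CD4 Flica-negative, CD8 Flica-negative and CD8 Flica-positive cells alike, and no gene overlapped with its controls. Read against the listed genes, of which 31.1%, 37.5% and 46.8% were called higher and 35%, 40.7% and 48.2% lay above controls without overlap in these 3 comparisons, the members' counts are a description, since the genes were listed for such differences. The median log2 fold change of the 7 genes was 4.28 in CD4 Flica-negative cells, 7.38 in CD8 Flica-negative and 6.89 in CD8 Flica-positive cells. The median of all listed genes was 0.06, 0.66 and 2.04 in the same order. Selection shaped these sizes too, as every member but Cd160 was listed for a log2 fold change beyond 2 in all 3 comparisons. The median of all listed genes mixes selected rises and falls, so this contrast is also a description. Both CD8 comparisons used the same 3 control libraries. In bulk RNA, more cells that carry a transcript and more RNA per cell cannot be told apart.

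Pdcd1 reached 8024, 8221 and 8133 normalized counts in the CD8 Flica-negative libraries, 8149, 7197 and 5717 in the Flica-positive ones and 4594, 4599 and 4269 in CD4 Flica-negative cells. The 3 CD8 Flica-negative libraries were nearly equal, and no aGvHD library came near its controls. The log2 fold change over controls was 9.41 in CD8 Flica-negative cells (SE 0.39, adjusted p = 3.4e-08), 9.20 in Flica-positive cells (SE 0.50, adjusted p = 3.9e-06) and 4.81 in CD4 Flica-negative cells (SE 0.23, adjusted p = 9.2e-09). Since CD8 controls held few Pdcd1 reads, the exact size of the CD8 folds is uncertain, with a 95% confidence interval of 8.55 to 10.26 for Flica-negative cells.

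Ctla4 reached 10481, 10824 and 11445 normalized counts in CD4 Flica-negative cells and 11528, 11936 and 10944 in CD8 Flica-negative cells. In Flica-positive cells it stood at 7093, 7195 and 6444, below all 6 Flica-negative aGvHD libraries. Over controls this was a log2 fold change of 3.81 in CD4 Flica-negative cells (SE 0.19, adjusted p = 1e-08), 6.43 in CD8 Flica-negative cells (SE 0.28, adjusted p = 4.3e-08) and 5.70 in Flica-positive cells (SE 0.33, adjusted p = 4.9e-06). The smaller CD4 value went with the higher CD4 controls.

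Lag3 was at 5744, 6225 and 5633 in CD8 Flica-negative, 6968, 6611 and 5552 in Flica-positive and 1888, 2419 and 3103 in CD4 Flica-negative cells. The CD8 groups overlapped, and each CD4 library was below each CD8 aGvHD library. Its log2 fold change was 7.42 (SE 0.27, adjusted p = 1.3e-08) in CD8 Flica-negative, 7.54 (SE 0.33, adjusted p = 2.5e-06) in Flica-positive and 4.28 (SE 0.32, adjusted p = 2.4e-07) in CD4 Flica-negative cells.

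Havcr2, a receptor typical of terminally differentiated T cells and also found on myeloid cells, rose from near 0. It gave 3698, 4363 and 4275 normalized counts in CD8 Flica-negative cells, 3559, 4463 and 3747 in Flica-positive cells and 1734, 1901 and 1743 in CD4 Flica-negative cells. Its fitted log2 fold changes of 9.46 (SE 0.69, adjusted p = 1.1e-06), 9.39 (SE 0.86, adjusted p = 2.7e-05) and 6.80 (SE 0.50, adjusted p = 1.9e-07) had the widest confidence intervals of the 7 genes. CD8 controls held 2, 17 and 0 reads of it and CD4 controls 7, 5 and 38. In CD8 Flica-negative cells the interval ran from 7.93 to 10.98.

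Tigit was the only 1 of the 7 whose mean was highest in CD4 cells, with 6093, 6967 and 6490 normalized counts in CD4 Flica-negative, 6060, 6546 and 5564 in CD8 Flica-negative and 4372, 4615 and 3938 in Flica-positive cells. The Flica-positive libraries were all below the other 6 aGvHD libraries, which overlapped each other. The log2 fold change over controls was 5.99 in CD4 Flica-negative (SE 0.19, adjusted p = 6.9e-10), 7.38 in CD8 Flica-negative (SE 0.50, adjusted p = 6.7e-07) and 6.89 in Flica-positive cells (SE 0.57, adjusted p = 1.8e-05).

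Cd160 showed the smallest change. It was at 1303, 1517 and 1425 in CD8 Flica-negative, 1399, 1314 and 1026 in Flica-positive and 224.8, 315.8 and 283.5 in CD4 Flica-negative cells. Even at Day 7 the CD4 libraries stayed below the CD8 controls. The log2 fold change was 1.94 in CD8 Flica-negative (SE 0.20, adjusted p = 1.5e-05), 2.07 in CD4 Flica-negative (SE 0.32, adjusted p = 0.00013) and 1.75 in Flica-positive cells (SE 0.24, adjusted p = 0.00027). The last of these was lost with TMM scaling (log2 fold change 0.13, adjusted p = 0.73).

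Entpd1 was at 1178, 1099 and 942.4 in CD8 Flica-negative, 970.7, 1515 and 962.7 in Flica-positive and 843.7, 919.6 and 790.5 in CD4 Flica-negative cells. Control libraries held 28.2 to 71.6 normalized counts in CD8 and 76.4 to 94.3 in CD4 cells. Its log2 fold change was 4.51 (SE 0.37, adjusted p = 2.4e-06), 4.61 (SE 0.44, adjusted p = 3.4e-05) and 3.29 (SE 0.24, adjusted p = 1.6e-07), in the same order. B cells and myeloid cells also carry CD39. Summed B cell markers (9 of 10 with a row) were at 7384 to 11005 normalized counts in the control libraries and at 50.3 to 699.3 in aGvHD libraries. Summed neutrophil markers (14 of 14 with a row) were at 60.9 to 118.1 in CD8 controls, 11864 to 18188 in CD8 Flica-negative and 200517 to 387729 in Flica-positive libraries, and went from 65.8 to 144.0 in CD4 controls to 2670 to 7795 in CD4 Flica-negative libraries. Summed macrophage markers (12 of 14 with a row) were at 4011 to 5446 in Flica-positive libraries and at 239.8 to 480.2 in the other groups. Their part in the Entpd1 result was not tested.

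**Figure D2:**
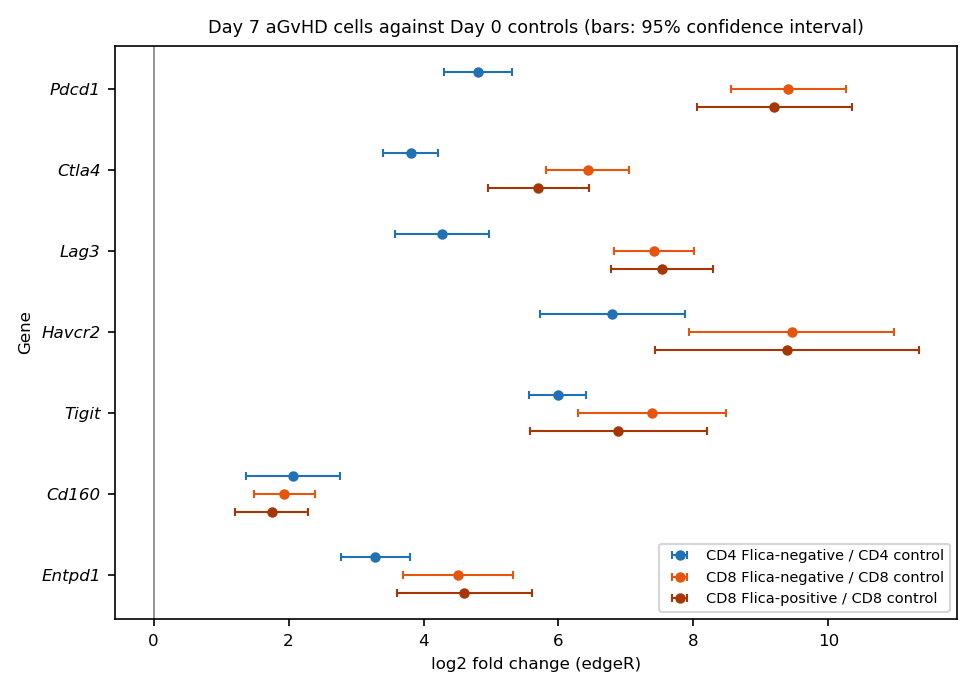
Log2 fold change of each gene (y axis) in Day 7 aGvHD cells over Day 0 controls of the same lineage (x axis, edgeR); points are estimates from 3 against 3 libraries and bars 95% confidence intervals. All 21 estimates lie to the right of 0, from 1.75 for Cd160 in Flica-positive cells to 9.46 for Havcr2 in CD8 Flica-negative cells.

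The size of the Flica-positive values against controls hung on the scaling. TMM trims genes with extreme ratios and presumes that most genes do not change. It was run here on the listed genes alone, all selected for differences, so it cannot decide which scaling is right. It shifted the median of all listed genes by -1.61 on the log2 scale in that comparison. Calls went from 2137 higher and 1093 lower to 1232 and 1609. TMM left 6 of the 7 genes called higher, from 2.97 for Entpd1 to 7.75 for Havcr2.

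The Flica-positive fraction of CD8 cells differed from the Flica-negative fraction in 1 of the 7 genes. Against the 3 CD8 Flica-negative libraries, Ctla4 alone passed the test, with a log2 fold change of -0.73 (SE 0.18, 95% confidence interval -1.12 to -0.34, adjusted p = 0.01), which is 1.66-fold lower in Flica-positive cells. Of the listed genes 23.2% were called in this comparison, 20.6% higher and 2.63% lower. The 3 Flica-positive Ctla4 values lay below the 3 Flica-negative values, as did those of Tigit, and such a separation was seen for 13.4% of listed genes. Tigit had a log2 fold change of -0.49 (SE 0.19, adjusted p = 0.08). It passed with DESeq2 (adjusted p = 0.025) and with a block for the replicate number, and each of these called 2 of the 7 genes. The other 5 genes overlapped, with log2 fold changes of -0.21 for Pdcd1 (95% confidence interval -0.64 to 0.21), 0.12 for Lag3 (-0.29 to 0.53), -0.07 for Havcr2 (-0.49 to 0.36), -0.18 for Cd160 (-0.65 to 0.28) and 0.10 for Entpd1 (-0.43 to 0.63). These intervals leave room for differences as large as -0.65 or 0.63 on the log2 scale. The median of the 7 genes was -0.18, while the median of all listed genes was 0.38. The listed shares and median are shaped by selection, since 972 of the listed genes were chosen for a difference between these fractions.

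This comparison too depended on how libraries were scaled, with TMM again run on the selected genes alone. With TMM, the median of all listed genes shifted by -0.56, calls went from 940 higher and 120 lower to 734 and 452, and 5 of the 7 genes were called lower: Ctla4 (-1.32), Tigit (-1.08), Pdcd1 (-0.78), Cd160 (-0.75) and Havcr2 (-0.65). Lag3 and Entpd1 turned from positive to negative (-0.46 and -0.50) without passing. Without CD8 Flica-negative replicate 2 the Ctla4 call was lost (adjusted p = 0.068).

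Ratios between genes inside a library do not depend on scaling, and they were computed after the values had been seen. For each read of Lag3 there were 2.01, 1.92 and 1.94 reads of Ctla4 in the CD8 Flica-negative libraries and 1.02, 1.09 and 1.16 in the Flica-positive libraries. For Tigit the ratio was 1.05, 1.05 and 0.988 against 0.627, 0.698 and 0.709. Neither gene's groups overlapped, and the same held for Pdcd1 (1.32 to 1.44 against 1.03 to 1.17) and Cd160 (0.227 to 0.253 against 0.185 to 0.201). All 4 were lower relative to Lag3 in Flica-positive cells, a separation that 15.7% of the 4566 other listed genes showed. Lag3 had the highest log2 fold change of the 7 genes between these fractions (0.12), so its choice as the denominator sets the direction of the other ratios, which are a description only. Havcr2 (0.644 to 0.759 against 0.511 to 0.675) and Entpd1 (0.167 to 0.205 against 0.139 to 0.229) overlapped. These ratios are the same under any scaling of the libraries.

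**Figure D3:**
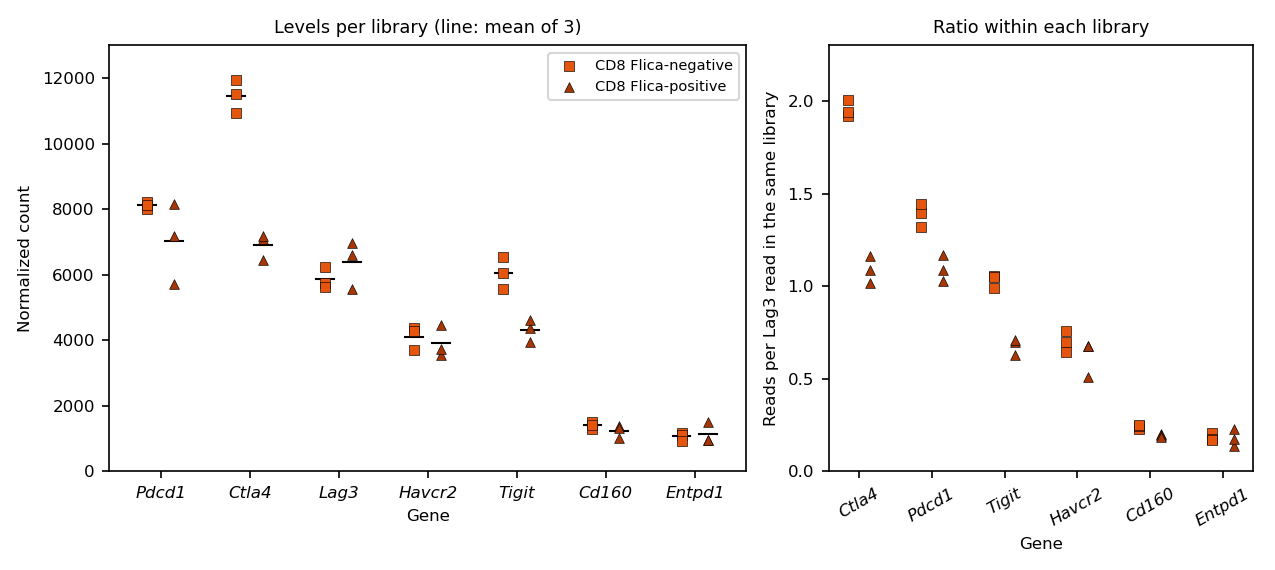
Left, normalized counts of the 7 genes (y axis, linear) in the 3 CD8 Flica-negative and 3 CD8 Flica-positive libraries, with lines for the mean of 3; right, reads of each gene per Lag3 read in the same library (y axis). Ctla4 and Tigit separate in both panels, and in the right panel Ctla4 falls from about 1.92 to 2.01 down to 1.02 to 1.16.

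Markers of other cells moved along the same split. Of 14 macrophage markers 12 had a row and 10 of these were higher in Flica-positive cells, where 20.6% of listed genes were called higher. As 972 of the listed genes were selected for a difference between these fractions, that share is not a neutral reference. The summed level of the macrophage markers was 4011 to 5446 normalized counts against 283 to 369 in CD8 Flica-negative cells. Myeloid cells can carry Havcr2 and Entpd1, whose log2 fold changes here were -0.07 (95% confidence interval -0.49 to 0.36) and 0.10 (-0.43 to 0.63). Neither passed the test, which does not tell whether such cells contributed. Summed erythroid markers (5 of 10 with a row) ranged from 1393 to 110389 within the Flica-positive group. The part of these transcripts in the receptor differences was not tested.

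CD4 and CD8 Flica-negative cells of aGvHD mice were compared next. Pdcd1, Lag3, Havcr2 and Cd160 were lower in CD4 than in CD8 cells, 4 of 7 genes where 22% of listed genes were called, 12.3% lower and 9.66% higher. The log2 difference, CD4 over CD8, was -2.37 for Cd160 (SE 0.22, adjusted p = 1.5e-07), -1.25 for Lag3 (SE 0.17, adjusted p = 2.1e-05), -1.20 for Havcr2 (SE 0.15, adjusted p = 9.9e-06) and -0.86 for Pdcd1 (SE 0.13, adjusted p = 6.1e-05). Ctla4 (-0.07, 95% confidence interval -0.31 to 0.17) and Tigit (0.11, -0.17 to 0.38) did not pass, with intervals that exclude a difference beyond 0.38 on the log2 scale. Entpd1 was at -0.33 (-0.74 to 0.07, adjusted p = 0.24) although its groups did not overlap, as for 19.6% of listed genes with CD4 lower. Havcr2 missed the threshold when all 15 libraries were fitted together (adjusted p = 0.097). Neutrophil markers were also fewer in CD4 cells (summed 2670 to 7795 normalized counts, with 11 of 14 lower), and so were NK cell markers (8 of 10 with a row, 5 of them lower, summed 3624 to 4034 against 31531 to 37066), which include the cytotoxic genes Prf1 and Gzma of CD8 cells; the part of either in these differences was not tested.

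Pdcd1 and Lag3 thus changed order between the lineages, higher in CD4 among controls and higher in CD8 at Day 7. The difference between the responses was tested as an interaction, the CD4 log2 fold change minus the CD8 log2 fold change. It was -4.60 for Pdcd1 (SE 0.40, adjusted p = 8.6e-07), -3.14 for Lag3 (SE 0.40, adjusted p = 3.5e-05) and -2.62 for Ctla4 (SE 0.30, adjusted p = 1e-05), so 3 of 7 genes had a smaller response in CD4 cells. Of the listed genes 10.2% were called, 5.65% with a larger and 4.6% with a smaller CD4 response. Members and listed genes were selected for differences from controls in the libraries that enter this test. Its p-values and these shares are thus a description and not independent evidence. Havcr2 (-2.65, adjusted p = 0.056), Tigit (-1.40, adjusted p = 0.0551) and Entpd1 (-1.22, adjusted p = 0.06) fell just outside the threshold. Cd160 was at 0.13 (95% confidence interval -0.53 to 0.79), its difference between lineages being -2.50 among controls and -2.37 at Day 7. For Ctla4 the responses differed while the Day 7 levels of CD4 and CD8 cells overlapped, since its controls differed.

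**Figure D4:**
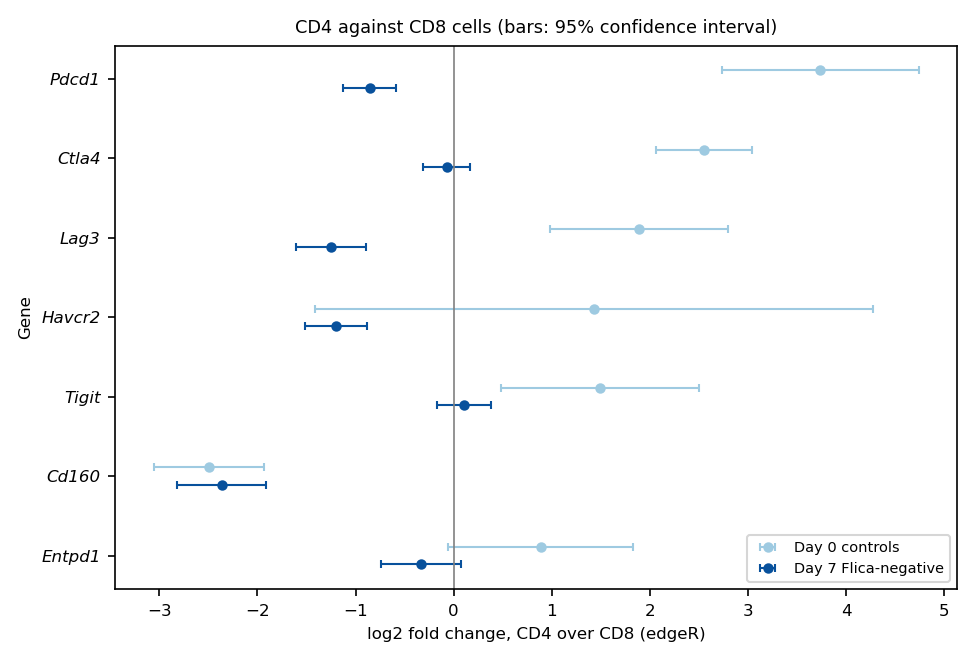
Log2 difference between CD4 and CD8 cells (x axis, positive where CD4 is higher, edgeR) for each gene (y axis), among Day 0 controls and among Day 7 Flica-negative cells; bars are 95% confidence intervals from 3 against 3 libraries. Pdcd1 moves from 3.74 to -0.86 and Lag3 from 1.89 to -1.25, while Cd160 stays near -2.50 and -2.37.

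To compare genes with each other, normalized counts were divided by the length of annotated exons, which runs from 919 bases for Tigit to 5580 for Entpd1. On this per-kilobase scale Tigit was the highest of the 7 in every aGvHD group, with 7091 ± 476.0 normalized counts per kilobase in CD4 Flica-negative, 6590 ± 534.2 in CD8 Flica-negative and, for the Flica-positive fraction, 4688 ± 373.0 (SD, n = 3). Ctla4 was next in both Flica-negative groups (4685 ± 209.8 in CD4 and 4922 ± 214.1 in CD8), whereas in Flica-positive cells Pdcd1 (3638 ± 635.0), Lag3 (3024 ± 349.0) and Ctla4 (2966 ± 174.7) stood close together below Tigit. Cd160 made up 52.0% of the summed per-kilobase level of the 7 genes in CD8 controls and 2.58% in CD8 Flica-negative cells. Ctla4 made up 52.6% in CD4 controls and 28.9% in CD4 Flica-negative cells, where Tigit took 43.8%. Among these 7 genes, Cd160 thus had the largest share in CD8 controls and Ctla4 in CD4 controls. The per-kilobase values rest on the annotated exons and not on the transcripts these cells used.

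**Figure D5:**
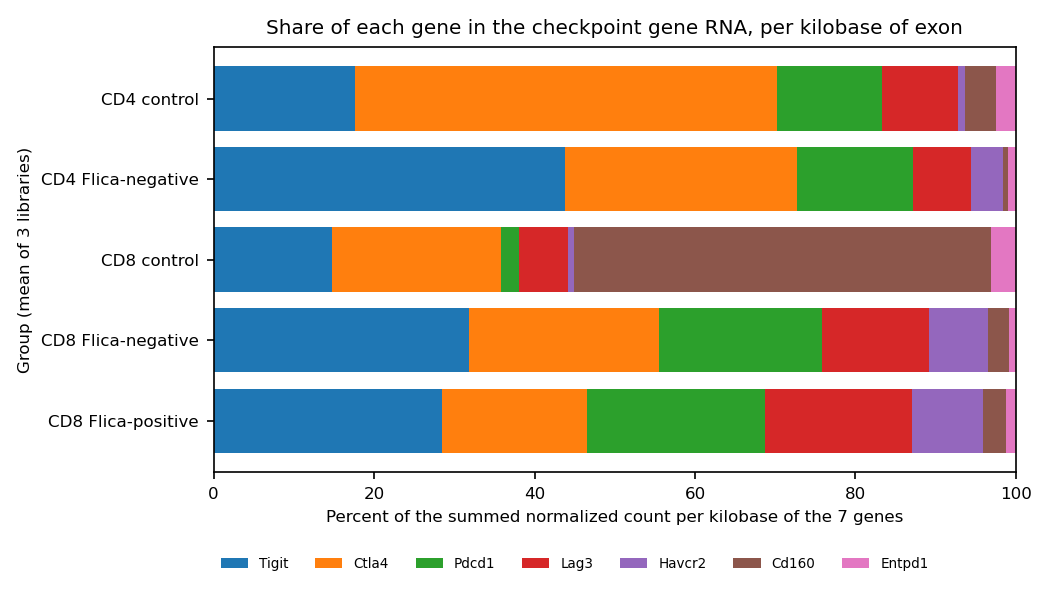
Share of each of the 7 genes (x axis, percent of their summed normalized counts per kilobase of annotated exon) in each group (y axis, mean of 3 libraries). Cd160 fills 52.0% of the bar of CD8 controls and Ctla4 52.6% of that of CD4 controls, while Tigit leads in the aGvHD groups.

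Around the receptors, 5 of 13 ligands had a row, of which 3 were higher than controls in CD8 Flica-negative, 5 in Flica-positive and 3 in CD4 Flica-negative cells, where 1 was lower. Of all listed genes 37.5%, 46.8% and 31.1% were called higher in these 3 comparisons, and since genes were listed for such differences, the counts of this and the following lists are a description beside those shares. Lgals3, a galectin known to bind LAG-3, rose in all 3 aGvHD groups, with log2 fold changes of 9.54 in CD8 Flica-negative (SE 0.22, adjusted p = 7e-10), 9.51 in Flica-positive (SE 0.29, adjusted p = 4.7e-07) and 8.91 in CD4 Flica-negative cells (SE 0.61, adjusted p = 1.1e-07). Cd80, a ligand of CTLA-4 and CD28, rose in CD8 (5.59, SE 0.72, adjusted p = 6.3e-05) and CD4 Flica-negative cells (3.75, SE 0.49, adjusted p = 3.1e-05). Within CD8 cells of aGvHD mice 1 of the 5 was called with the FLICA signal, beside 20.6% of listed genes called higher and 2.63% lower. This was Ceacam1, a TIM-3 ligand also abundant in granulocytes. It stood at 2121 ± 912.6 normalized counts in the positive against 133.2 ± 70.4 in the negative fraction (log2 fold change 3.99, SE 0.44, adjusted p = 2.2e-05).

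Of 15 other inhibitory receptors 8 had a row. In CD8 Flica-negative cells 6 were higher and none lower than in controls, in CD4 Flica-negative cells 4 and none, and in Flica-positive cells all 8, where 37.5%, 31.1% and 46.8% of listed genes were called higher. Lilrb4b rose most in CD4 cells (log2 fold change 9.99, SE 0.24, adjusted p = 4.4e-11). It also rose in CD8 Flica-negative cells, from a mean of 15.5 normalized counts in CD8 controls to 5873. Klrg1 rose by 6.86 in CD8 Flica-negative cells (SE 0.72, adjusted p = 1.5e-05), over CD8 controls that held 0 to 12 reads of it per library. Cd300a (log2 fold change 4.53, SE 0.61, adjusted p = 0.00011) and Pilra (3.38, SE 0.57, adjusted p = 0.0007), both receptors known from myeloid cells, were higher in the Flica-positive fraction of CD8 cells.

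The costimulatory list had 4 of 12 genes with a row, all higher than controls in each aGvHD group. Icos, the inducible costimulator of the CD28 family, rose by 3.45 in CD4 (SE 0.18, adjusted p = 1.3e-08) and by 2.80 in CD8 Flica-negative cells (SE 0.17, adjusted p = 3.5e-07). It was lower in the Flica-positive CD8 fraction than in the negative one (-0.55, SE 0.18, adjusted p = 0.0498), a call lost on leaving out any of 5 of the 6 libraries: CD8 Flica-negative replicates 1, 2 and 3 (adjusted p = 0.11, 0.16 and 0.088) and Flica-positive replicates 1 and 2 (adjusted p = 0.07 and 0.15). Cd40lg, the helper ligand of CD4 cells, was higher in CD4 than in CD8 Flica-negative cells by 5.44 (SE 0.23, adjusted p = 1.7e-12).

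Of 20 transcription factors tied to exhaustion or effector fate, 13 had a row, and in each aGvHD group 11 rose and 2 fell against controls. The 2 that fell were Tcf7 and Id3, known from naive and memory-like cells. Tcf7 (TCF-1) had log2 fold changes of -4.23 in CD8 Flica-negative (SE 0.13, adjusted p = 3.7e-09), -5.24 in Flica-positive (SE 0.22, adjusted p = 2.2e-06) and -2.26 in CD4 Flica-negative cells (SE 0.16, adjusted p = 1.6e-07). Bhlhe40, induced by T cell activation, rose by 7.28 in CD8 Flica-negative cells (SE 0.17, adjusted p = 7.6e-10). Tox2, the relative of Tox that had a row, held at most 1 read in any CD8 control library and 320.7 to 402.2 normalized counts in CD8 Flica-negative libraries.

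In the Flica-positive CD8 fraction 6 of these 13 factors were lower than in the negative fraction and none higher, where 2.63% of listed genes were called lower and 20.6% higher. The list median was -0.51, and that of all listed genes 0.38. As 972 of the listed genes were selected for a difference between these fractions, the shares and the listed median are not neutral references. Tcf7 (-1.01, SE 0.23, adjusted p = 0.0055) and Bhlhe40 (-0.88, SE 0.19, adjusted p = 0.0041) showed the largest differences, and Maf, Nr4a3, Nr4a2 and Irf4 were the others. The Flica-positive libraries also held larger shares of mitochondrial reads and more neutrophil and macrophage transcripts. Their part in the differences of these factors was not tested. The count became 10 with TMM, and 2 without CD8 Flica-negative replicate 2, Flica-positive replicate 1 or Flica-positive replicate 2, and 3 without CD8 Flica-negative replicate 3.

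In the adenosine list 3 of 7 genes had a row, with 1, 3 and 1 higher than controls in CD8 Flica-negative, Flica-positive and CD4 Flica-negative cells, beside 37.5%, 46.8% and 31.1% of listed genes. Ada, which degrades adenosine, was higher in the Flica-positive CD8 fraction than in the negative one (400.4 ± 51.0 against 117.7 ± 9.82 normalized counts, log2 fold change 1.77, SE 0.32, adjusted p = 0.0012). Entpd3, a relative of Entpd1, held 77.4 to 243.7 normalized counts in Flica-positive and 6.39 to 18.7 in CD8 Flica-negative libraries, and no read in any control library. Of 13 cytoplasmic genes of inhibitory signalling 4 had a row, and 1 of them, Dgka, was lower than controls in every aGvHD group, while 2, 3 and 2 were higher in the same order. Rgs1, a brake on chemokine receptor signalling, rose in CD8 Flica-negative cells (4.19, SE 0.34, adjusted p = 2.2e-06) and was lower in Flica-positive cells (-0.78, SE 0.20, adjusted p = 0.013), a call lost without Flica-positive replicate 2 (-0.77, adjusted p = 0.057) and in the fit of all 15 libraries (adjusted p = 0.0528). Sh2d1b1, of the SAP adaptor family, was the gene of this list called higher in Flica-positive cells (3.40, SE 1.10, adjusted p = 0.043), at 17.7 to 76.5 normalized counts against 2.13 to 6.04 in the CD8 Flica-negative libraries, which held 2 to 7 reads of it. That call was lost with TMM (adjusted p = 0.081), in the fit of all 15 libraries (adjusted p = 0.094), without CD8 Flica-negative replicate 1, 2 or 3 (adjusted p = 0.14, 0.13 and 0.079) and without Flica-positive replicate 1 or 3 (adjusted p = 0.063 and 0.093). Neutrophil and macrophage markers were also higher in Flica-positive libraries, and their part in the Ada, Entpd3 and Sh2d1b1 values was not tested. Dgka, which dampens diacylglycerol signalling, fell by 1.63 in CD8 (SE 0.17, adjusted p = 1.1e-05) and fell by 1.40 in CD4 Flica-negative cells (SE 0.14, adjusted p = 3e-06).

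Across the 15 libraries, the genes most like each member were sought among 1661 listed genes by the Pearson correlation of log2 normalized counts. The 15 points fall into 5 groups, so the correlation mostly reads the step between control and aGvHD cells. Raph1 was closest to both Ctla4 (r = 0.996) and Pdcd1 (r = 0.991), Osbpl3 to Tigit (r = 0.989) and S100a6 to Entpd1 (r = 0.989). Entpd1 itself was closest to Havcr2 (r = 0.986). Cd160 had neighbours of its own, Wdr95 (r = 0.980), Ccl5 (r = 0.972) and Prf1, which encodes perforin (r = 0.971).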

How the data were processed

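RNA was sequenced from sorted splenic T cells (oligo-dT libraries, paired-end NovaSeq reads). The submitters' processing notes name the build GRCm38, the aligner STAR 2.7.1a and DESeq2; the counting tool, annotation and strandedness are not given in the sources used here. The authors deposited whole-number read counts per gene for the genes of 4 tables, each selected by their own test, beside their mean, fold changes and p-values. The deposited log2 fold changes and p-values are the authors' own comparisons, read only to see how each table had been selected. The deposited mean is a normalized signal, the authors' mean over all libraries of counts divided by size factors, and served to recover those factors. The 4 enrichment tables were not used.

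Counts of the 4567 genes in the union of the tables were fitted per comparison with edgeR 4.0.16 (quasi-likelihood test, R 4.3.3), using the recovered size factors, and p-values were adjusted by Benjamini-Hochberg over all listed genes, with a threshold of 0.05. The SE of a log2 fold change was taken from its F statistic. The interaction used the 4 control and Flica-negative groups. Alternatives were TMM over the listed genes, DESeq2 1.42.0, a minimum mean of 10 normalized counts, 1 fit of all 15 libraries, a block for the replicate number, and leaving out each library in turn. Scripts were tested on simulated data.

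Named genes were the members, in each pathway list the 2 largest rises and 2 largest falls that passed, and the 3 genes with the highest correlation to a member (log2 of normalized counts plus 1, mean of at least 100). Fewer than all of these are printed, and 1 correlation is not reported here. The members and lists were chosen with earlier results of these data known. Replicates of each group differed by more than sampling noise. Counts of listed genes give no depth per library, and intervals cover the spread between 3 libraries only.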

Additional observations from a re-analysis of the deposited data

Results flagged for a closer look

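The CD4 and CD8 responses to aGvHD, each Flica-negative cells over controls, differed by a test of the difference itself for 3 of the 7 checkpoint genes. The CD4 log2 fold change minus the CD8 log2 fold change was -4.60 for Pdcd1 (adjusted p = 8.6e-07), -3.14 for Lag3 (adjusted p = 3.5e-05) and -2.62 for Ctla4 (adjusted p = 1e-05, edgeR). Of the listed genes 10.2% were called in this test, 5.65% with a larger and 4.6% with a smaller response in CD4 cells. The genes were listed for differences from controls in these same libraries, so the p-values and shares are not independent evidence. The control level differed between lineages for each of the 3 genes, by 3.74, 1.89 and 2.55 on the log2 scale, and CD8 controls held between 6 and 23 reads of Pdcd1.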

How the results depend on the processing

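Of the 7 checkpoint genes, 1 was called between the Flica-positive and -negative CD8 fractions; the count was 5 with TMM, 2 with DESeq2 and 2 with a replicate block, and between 0 and 1 when each library was left out. Between CD4 and CD8 controls 5 were called, and between 3 and 5 with a library left out. For the difference of responses 3 were called, 5 with DESeq2, and between 3 and 5 with a library left out, 5 being reached without CD8 control replicate 2. The direction turned for Lag3 (-0.46) and Entpd1 (-0.50) between these fractions with TMM, for Entpd1 without CD8 Flica-positive replicate 2 (-0.15, against up to 0.21 without another library), and for Ctla4 between CD4 and CD8 Flica-negative cells with TMM (0.013); none of these passed the test, and the causes were not tested. Of the single values of the checkpoint genes, 324 kept direction and side of the threshold with a library left out, 4 gained a call and 7 lost one; under the other alternatives 228 kept both, 10 gained and 4 lost a call. Of the named pathway genes, none turned direction, and 63 values lost a call with a library left out and 24 under the other alternatives. Of the other inhibitory receptors, 2 were called between the CD8 fractions, and 4 with TMM or the block. Over all listed genes, 1060 calls between the CD8 fractions became 703 without CD8 Flica-negative replicate 2, 1004 between CD4 and CD8 Flica-negative cells became 640 in the fit of all libraries, and 468 for the difference of responses became 287 with TMM and 711 with DESeq2. The replicate block took 3230 calls of Flica-positive cells against controls to 2106. Same-numbered Flica-positive and Flica-negative libraries deviated together with correlations of 0.04 to 0.13, not all above 0.1, and the labels do not say what a number shares. Each library correlated best with its own number there and between CD4 and CD8 libraries of one state. Between control and aGvHD groups this was not so. Summed erythroid markers also fell from replicate 1 to replicate 3 in each aGvHD group. The paper describes sorting splenocytes of several aGvHD mice into these groups, so same-numbered fractions may share mice. These are hints, since no label states it, and the main fits did not pair libraries. The block called Tigit (adjusted p = 0.038). With 3 libraries per group and CD8 controls of few reads, fold sizes of Pdcd1 and Havcr2 are loosely bounded, and genes outside the deposited tables were not analysed here.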
